A study of Mus musculus with 2 samples.

Results

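The genes described here are the Wnt ligands, their receptors and inhibitors, and the nuclear factors through which the canonical pathway acts. They were chosen by symbol alone: every *Wnt*, every *Fzd*, *Sfrp1* to *Sfrp5*, *Dkk1* to *Dkk4*, *Rspo1* to *Rspo3*, the receptor genes *Lrp5*, *Lrp6*, *Ror1*, *Ror2* and *Ryk*, the transcription factor genes *Lef1*, *Tcf7*, *Tcf7l1* and *Tcf7l2*, and the feedback target *Axin2*. The rule found 50 of the 33207 genes counted: 19 *Wnt*, 10 *Fzd*, 4 *Sfrp*, 4 *Dkk* and 3 *Rspo* genes, 5 other receptor genes, 4 factor genes and *Axin2*.

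Wnt proteins are secreted lipid-modified ligands that bind Frizzled (Fzd) receptors. In the canonical branch, the co-receptors Lrp5 and Lrp6 join the complex, β-catenin is spared from degradation by the Axin complex, and it enters the nucleus to switch TCF/LEF factors from repression to activation. In the non-canonical branches, Ror and Ryk receptors take up ligands such as Wnt5a without β-catenin. Secreted Frizzled-related proteins (Sfrp) bind the ligands, Dickkopf proteins (Dkk) block the co-receptors, and R-spondins (Rspo) protect Frizzled receptors from turnover. In the neural crest, canonical Wnt signalling is known for promoting the formation of the crest and the sensory neuron fate.

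Single-cell RNA-seq was carried out on Tomato-positive cells sorted from the meninges, dorsal root ganglia (DRGs) and dorsal and ventral roots, with 1 library of E11.5 and 1 of E12.5. The genotype of the embryos was *Egr2-Cre; R26-Tomato* throughout. *Egr2* (*Krox20*) drives the Cre in boundary cap cells (BCCs), the transient glial cells at the nerve root entry and exit points, and the Tomato reporter remains on in all their descendants, so that a sorted cell need not be a boundary cap cell at the time of dissection. Each library pooled the sorted cells of a litter, whose number of embryos was not stated, and no other genotype or Cre-negative control is analysed here. Neither stage had a replicate, so no test was possible between conditions, and every interval below is a 95% interval that covers counting error only and not the spread between embryos.

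After filters, 833 cells were kept at E11.5 and 3496 at E12.5, with a median of 11601 and 6140 UMIs (unique molecular identifiers, counted transcripts) per cell; 7 kept barcodes occurred in both libraries. Clusters were called glia-like, neuron-like, pericyte-like, mesenchymal-like or myeloid-like from marker genes, and the 50 genes, *Prss56* and *Egr2* were kept out of the clustering. There were 461 glial cells (glia below) in the E11.5 library and 1588 in the other, and 222 and 1431 neuron-like cells (neurons below). Non-neural cells numbered 61 at E11.5, all pericyte-like, and 259 at E12.5, of which 182 were mesenchymal-like, 41 pericyte-like and 36 myeloid-like. *Sox10*, the defining factor of crest-derived glia, stood at 307 and 323 CPM (UMIs of the gene scaled to a total of 1000000 per class) in glia against 15.0 and 13.9 in neurons. *Tubb3*, a neuronal tubulin, stood at 4236 and 4611 CPM in neurons against 89.1 and 93.2 in glia. *Rgs5* was at 840 and 834 CPM in pericyte-like cells. The endothelial gene *Cldn5* was also among the leading genes of the pericyte-like cluster at both stages, and *Ecscr* at E11.5. The summed level of 9 endothelial markers was 1277 CPM in pericyte-like against 20.5 in neural cells at E11.5, and 1467 against 20.5 at E12.5. One cluster per library, led by the globin genes *Hba-a1* and *Hbb-y*, carried no class name and entered no comparison. It held 10.7% and 6.24% of kept cells. At E12.5 *Sox10* was found in 62.8% of its cells, and *Cck* and *Plcb1* were also among its leading genes. Both genes led a cluster of 53 cells that counted as glia at E11.5, so the glia of the 2 stages may not cover the same cells.

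*Prss56* encodes a serine protease and is, beside *Egr2*, the marker of boundary cap cells. Glia were split by it: a cell with at least 1 *Prss56* UMI was *Prss56*-positive, which gave 122 positive and 339 negative glia at E11.5 and 515 and 1073 at E12.5. *Egr2*, which the split did not use, was at 44.7 CPM in positive against 20.4 in negative glia at E11.5, and at 61.6 against 23.0 at E12.5. The median depth of the positive cells was 13812.5 UMIs against 12637 in the negative cells at E11.5, and 5522 against 5815 at E12.5. A negative call at these depths is not an absence of the transcript, and 0.901% and 1.19% of neurons also held a *Prss56* UMI.

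Of the 50 genes, 26 had 20 or more UMIs in the E11.5 library and 32 in that of E12.5; only these are called measurable, and all 26 were also measurable at E12.5. Another 16 and 17 genes had 1 to 19 UMIs, and 8 and 1 had none. All 4 factor genes, all 5 non-Frizzled receptor genes and *Axin2* were measurable at both stages, as were 7 and 9 of 10 *Fzd* genes, 3 of 4 *Sfrp*, 2 of 4 *Dkk*, 4 and 7 of 19 *Wnt*, and 0 and 1 of 3 *Rspo* genes. *Wnt9b* had no UMI in either library, and *Wnt1* had 0 and 17. The 21 genes with at least 100 UMIs at either stage are described in full, and the other 29 by counts except where a result turns on them. Because the capture of a transcript by its 3′ end differs from gene to gene, levels are compared between classes for the same gene and not between genes.

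The positions of the genes on which the results turn are those of GENCODE vM39 on GRCm39, the build to which the counts were mapped. *Lef1* lies at chr3:130903919-131018005 (plus strand), *Tcf7* at chr11:52143107-52174619 (minus), *Tcf7l2* at chr19:55730188-55922091 (plus), *Wnt5a* at chr14:28226495-28249405 (plus), *Sfrp1* at chr8:23901263-23939648 (plus), *Sfrp5* at chr19:42186410-42190691 (minus), *Dkk2* at chr3:131790336-131886065 (plus) and *Axin2* at chr11:108811169-108841609 (plus). All 50 genes were annotated as protein-coding, and the counts are per gene, with no exon given. Another annotated gene overlapped 11 of them on the same strand.

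Among the clusters named glial at E12.5, those with the highest *Sfrp5* levels had the lowest *Lef1* levels (described below). The unnamed E12.5 cluster had a lower *Lef1* level still. At E11.5 the glial cluster with the lowest *Lef1* level was not the one with the highest *Sfrp5* level. The 250 bases upstream of the *Sfrp5* start and of the first and an internal *Lef1* start are shown. Those of *Fzd7* are shown as an example of a window that holds a motif match. The sequences are those of RefSeq on GRCm38.p6, given 5′ to 3′ on the strand of the gene. Capitals mark a match, on either strand, to the 7-base core that TCF/LEF factors are known to bind, which was searched as CTTTGAA with its variant CTTTGAT and as CTTTGTA with its variant CTTTGTT.
*Lef1*, first start, chr3:131110047-131110296, plus strand: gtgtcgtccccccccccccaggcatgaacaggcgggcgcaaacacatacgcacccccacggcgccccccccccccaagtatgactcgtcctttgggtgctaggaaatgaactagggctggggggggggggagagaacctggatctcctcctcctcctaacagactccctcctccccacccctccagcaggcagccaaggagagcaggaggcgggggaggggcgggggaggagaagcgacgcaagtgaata
*Lef1*, internal start, chr3:131156044-131156293, plus strand: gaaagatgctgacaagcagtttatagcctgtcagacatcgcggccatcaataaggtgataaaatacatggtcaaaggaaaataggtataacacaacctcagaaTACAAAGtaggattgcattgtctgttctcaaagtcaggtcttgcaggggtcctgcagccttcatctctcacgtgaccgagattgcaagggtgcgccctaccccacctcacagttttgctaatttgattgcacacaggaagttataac
*Fzd7*, chr1:59481897-59482146, plus strand: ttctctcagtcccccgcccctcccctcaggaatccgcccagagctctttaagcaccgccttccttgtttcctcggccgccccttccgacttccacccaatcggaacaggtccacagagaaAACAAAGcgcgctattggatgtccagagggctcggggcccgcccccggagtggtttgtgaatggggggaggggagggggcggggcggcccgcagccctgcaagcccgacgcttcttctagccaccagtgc
*Sfrp5*, chr19:42202253-42202502, minus strand: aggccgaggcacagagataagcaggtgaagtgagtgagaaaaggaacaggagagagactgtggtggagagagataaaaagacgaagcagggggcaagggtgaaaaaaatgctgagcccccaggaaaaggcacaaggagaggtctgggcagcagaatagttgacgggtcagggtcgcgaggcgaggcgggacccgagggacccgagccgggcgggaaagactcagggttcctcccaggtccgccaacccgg
The match upstream of the internal *Lef1* start, TACAAAG, ended 141 bases before the start (position -141), and that of *Fzd7*, AACAAAG, at position -124. The windows at the first *Lef1* start and at *Sfrp5* held no match. Further *Lef1* windows, which begin at chr3:131110073 and chr3:131112541, also held no match and are not shown. Of the 50 genes, 34 had a window in the table, with 42 windows in all, and 6 windows (14.3%) held a match, beside 4874 of 32851 windows (14.8%) over all genes. The windows with a match belonged to *Dkk1*, *Fzd7*, *Lef1*, *Tcf7l2*, *Wnt11* and *Wnt5b*. A share this near that of all genes says nothing particular about these genes, and a match is a run of letters, not a bound site.

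The first question was how boundary cap cells, as marked by *Prss56*, differ from the other glia in the libraries. At both stages *Prss56*-positive glia carried higher levels of *Lef1*, *Tcf7* and *Wnt5a* and a lower level of *Sfrp1* than negative glia, each with a counting interval that left out equality. *Sfrp5* was lower in positive glia at E12.5 and did not differ beyond counting error at E11.5. No Frizzled or co-receptor gene differed between the classes beyond its counting interval. The share of all genes whose intervals left out equality was not counted, and *Lef1* stayed under 2-fold at both stages. Counted at a 2-fold difference, 2 of 26 measurable genes were higher in positive glia at E11.5 (*Wnt5a* and *Wnt9a*, the latter from 1 UMI in each class), where 2.90% of all 12324 measurable genes were, and 4 were lower (*Fzd1*, *Ror2*, *Sfrp1* and *Wnt5b*), where 4.48% of all genes were. At E12.5, 2 of 32 were higher (*Tcf7* and *Wnt5a*), beside 4.93% of 15102 genes, and 3 were lower (*Fzd8*, *Fzd9* and *Wnt6*, with 2 to 19 UMIs in a class), beside 3.53%. The E11.5 count of 6 in both directions was 2 with no doublet filter and 1 at a coarser clustering. The median log2 ratio over the measurable members was 0.081 and 0.064, beside 0.027 and 0.027 over all genes.

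Among the ligand genes, *Wnt5a*, the classical non-canonical ligand, was at 18.0 CPM in positive against 8.36 in negative glia at E11.5 (31 and 36 UMIs) and at 28.2 against 9.90 CPM at E12.5 (89 and 65 UMIs). The ratios were 2.15 (1.29 to 3.57) and 2.85 (2.05 to 3.99), so the higher level in positive glia was found in both libraries. Its close relative *Wnt5b* was lower in positive glia at E11.5, at 4.64 against 9.76 CPM with a ratio of 0.475 whose interval reached 1.03, and higher at E12.5, at 9.84 against 5.02 CPM with a ratio of 1.96 (1.16 to 3.30). At E11.5 the *Wnt5b* ratio rested on 8 UMIs in positive cells. At E12.5 its 31 UMIs in positive glia lay in 20 of 515 cells. Of these UMIs, 11 came from a glial cluster with only 21 positive cells, at 70.6 against 3.22 CPM there. The counting interval takes no account of such uneven counts. *Wnt4*, a ligand of both branches, had ratios of 0.594 (0.175 to 1.62) and 1.26 (0.743 to 2.10), within counting error of equality at both stages.

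Most receptor genes with enough UMIs for a narrow interval lay near equality across the split. *Fzd3*, a Frizzled known for axon guidance, was at 79.4 CPM in positive against 72.3 in negative glia at E11.5 and 89.5 against 102 at E12.5, with ratios of 1.10 (0.893 to 1.35) and 0.880 (0.763 to 1.01). *Fzd2* had ratios of 0.992 (0.735 to 1.33) and 1.09 (0.907 to 1.30). The co-receptor genes *Lrp5* and *Lrp6* had ratios of 1.11 (0.739 to 1.63) and 0.919 (0.684 to 1.22) at E11.5 and of 1.07 (0.730 to 1.54) and 0.909 (0.740 to 1.11) at E12.5. *Ryk*, an atypical tyrosine kinase receptor, stood at 0.991 and 1.09. *Ror1*, a receptor of Wnt5a, was somewhat above equality in both libraries, at 1.27 (0.948 to 1.70) and 1.28 (0.970 to 1.67), with both intervals including it. *Fzd1* and *Ror2* were past 2-fold lower in positive glia at E11.5, at 2.90 against 6.74 CPM (0.430, 0.130 to 1.12) and 2.32 against 4.65 CPM (0.499, 0.124 to 1.49), and at 1.18 and 1.10 at E12.5. *Fzd8* and *Fzd9* were past it at E12.5, at 0.635 against 1.98 CPM (0.321, 0.0351 to 1.42) and 1.27 against 2.89 CPM (0.439, 0.109 to 1.32). *Fzd7* had ratios of 1.18 and 0.653, and the intervals of all these ratios included equality.

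Of the inhibitor genes, *Sfrp1*, a secreted Frizzled-related protein, was at 31.3 CPM in positive against 64.4 in negative glia at E11.5 (54 and 277 UMIs) and at 59.0 against 82.8 CPM at E12.5 (186 and 544 UMIs). The ratios of 0.487 (0.357 to 0.653) and 0.712 (0.600 to 0.843) both lay below equality. *Sfrp5*, its relative, was at 39.4 against 33.0 CPM at E11.5, a ratio of 1.20 (0.882 to 1.61), and at 77.1 against 152 CPM at E12.5 (243 and 995 UMIs), a ratio of 0.509 (0.440 to 0.586). *Dkk2*, which encodes a Dickkopf protein, was close to equality, with 30.2 against 31.6 CPM and 43.8 against 41.7 CPM and ratios of 0.954 (0.680 to 1.32) and 1.05 (0.849 to 1.29). *Sfrp2* had ratios of 1.04 (0.529 to 1.95) and 0.843 (0.450 to 1.51). The inhibitor genes thus did not move as a group across the split.

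Of the nuclear factor genes, *Lef1* was at 251 CPM (228 to 276) in positive against 149 (138 to 161) in negative glia at E11.5, and at 214 (198 to 230) against 110 (102 to 119) at E12.5. The intervals of the classes did not overlap at either stage, and the ratios were 1.68 (1.49 to 1.90) and 1.94 (1.74 to 2.15). *Tcf7*, which encodes Tcf1, was at 25.5 against 13.0 CPM and at 22.8 against 9.90 CPM, with ratios of 1.96 (1.29 to 2.96) and 2.31 (1.63 to 3.28). *Tcf7l2*, which encodes Tcf4, did not differ beyond counting error, at 122 against 126 CPM and 180 against 176 CPM, with ratios of 0.974 (0.826 to 1.14) and 1.02 (0.919 to 1.13). *Tcf7l1*, which encodes the mostly repressive Tcf3, had a ratio of 1.08 (0.836 to 1.38) at E11.5 and was lower in positive glia at E12.5, at 77.7 against 97.1 CPM, a ratio of 0.800 (0.688 to 0.929). *Axin2*, a general feedback target of canonical signalling, was at 28.4 against 26.3 CPM at E11.5 (1.08, 0.758 to 1.53) and at 30.1 against 21.8 CPM at E12.5 (1.38, 1.06 to 1.81).

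**Figure D1:**
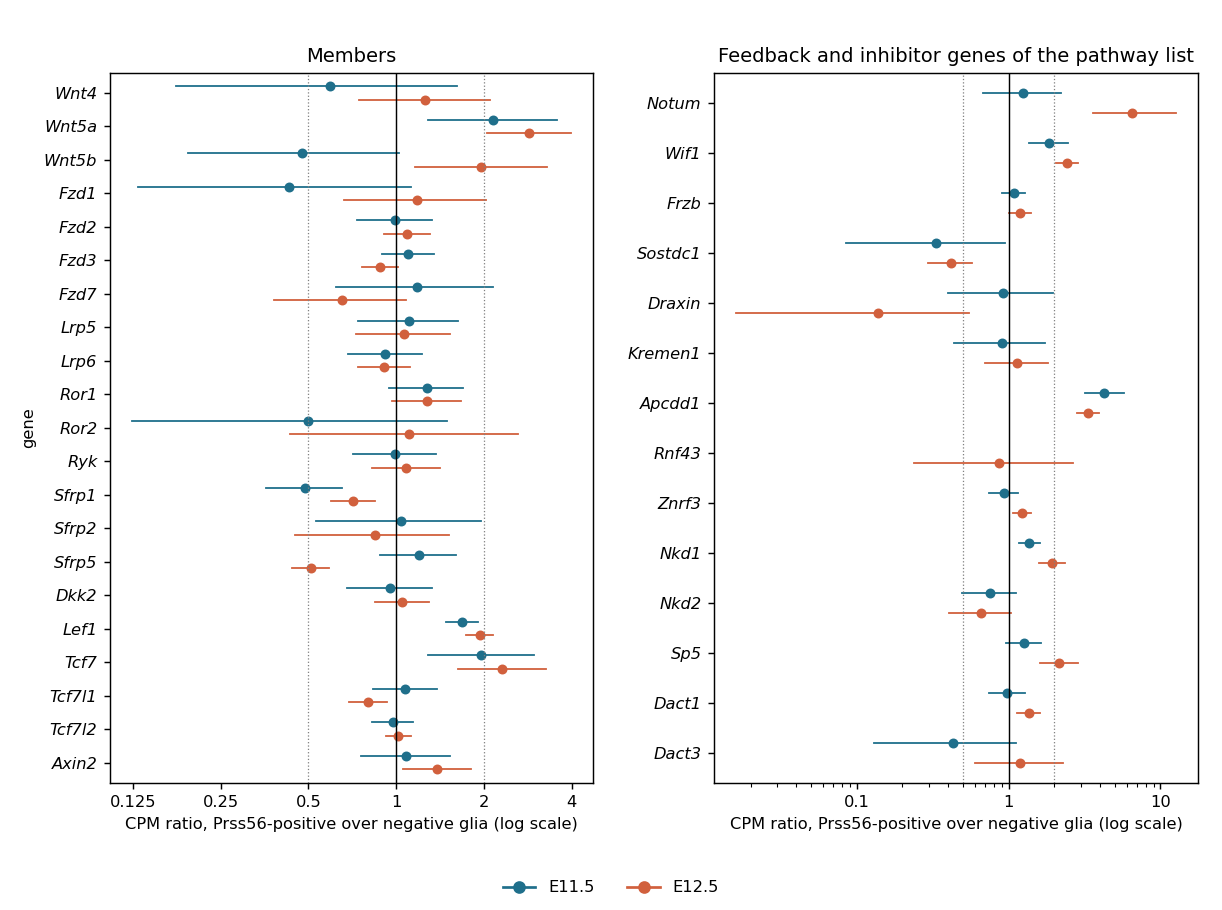
Ratio of the level (CPM) in *Prss56*-positive glia to that in *Prss56*-negative glia on a log axis, for the 21 genes with at least 100 UMIs at either stage (left) and for feedback and inhibitor genes of the wider pathway list (right), at E11.5 (blue) and E12.5 (orange). Points are ratios, bars are 95% counting intervals and dotted lines mark a 2-fold difference; *Lef1*, *Tcf7* and *Wnt5a* lie to the right of equality and *Sfrp1* to its left at both stages, and *Apcdd1* lies farther right than any gene of the left panel.

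The same split was made within each glial cluster that held at least 10 cells of each class, of which there were 4 at E11.5 and 6 at E12.5. *Lef1* was higher in positive cells in 4 of 4 and 6 of 6 clusters, and its ratio pooled over clusters was 1.30 and 1.38, below the 1.68 and 1.94 over all glia. *Wnt5a* was higher in 4 of 4 and 6 of 6 clusters, with pooled ratios of 1.78 and 1.93. *Sfrp1* was lower in positive cells in 3 of 4 and 6 of 6 clusters, with pooled ratios of 0.490 and 0.534. *Tcf7* was higher in positive cells in 3 of 4 and 4 of 6 clusters, and its pooled ratio was 1.30 at E11.5, against 1.96 over all glia, and 1.92 at E12.5. The directions of *Lef1* and *Wnt5a* thus held in each of these clusters, and those of *Sfrp1* and *Tcf7* in most of them, with no interval per cluster. In the cluster with the highest share of *Prss56* cells, *Lef1* was nearly equal in positive and negative cells. It stood there at 304 against 298 CPM at E11.5 and at 297 against 284 CPM at E12.5. *Wnt5a* at E11.5 rested on few UMIs per cluster, from 2 against 0 to 16 against 9. *Sfrp1* was higher in positive cells in the E11.5 cluster led by *Rgcc*, with 7 UMIs in 16 positive and 11 in 41 negative cells. For *Sfrp5* at E12.5 the pooled ratio was 0.846, and positive cells were higher in 3 of 6 clusters, so most of its difference over all glia lay between clusters and not within them.

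The summed level of the 19 neuronal markers moved with the split at E11.5, at 487 CPM in positive against 670 in negative glia. In neurons it stood at 13376 CPM. *Pou4f1*, a sensory neuron factor, was at 12.2 against 56.7 CPM in these glia, while *Tubb3* was at 84.7 against 90.8 CPM. At E12.5 the neuronal sums were 604 and 607 CPM. The 13 glial markers summed to 4038 against 3599 CPM at E11.5 and to 5984 against 7628 CPM at E12.5. The 12 mesenchymal markers summed to 227 against 155 CPM at E11.5 and to 583 against 398 CPM at E12.5, beside 6537 CPM in mesenchymal-like cells. At E11.5, 4 of the 12 had a UMI in positive and 6 in negative glia, with *Twist1*, *Prrx1* and *Foxc1* at 0 in both. At E12.5 these counts were 7 and 10, and *Col1a1* was at 30.8 against 20.3 CPM. The part of these genes in the differences was not tested. With cells that held a *Neurog1*, *Neurod1* or *Pou4f1* UMI left out, the *Lef1* ratio was 1.51 and 1.96 and the *Sfrp1* ratio 0.385 and 0.707; *Sfrp5* at E11.5 was 0.807.

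The level of *Lef1* in single cells gave the same order. After each cell was thinned to 2000 UMIs, 33.6% (25.3 to 42.7) of positive and 26.5% (21.9 to 31.6) of negative glia held a *Lef1* UMI at E11.5, beside 4.95% (2.50 to 8.69) of neurons, with exact binomial intervals. At E12.5 the shares were 34.5% (30.3 to 38.8), 19.4% (17.0 to 22.0) and 3.65% (2.72 to 4.79). The unthinned shares were 86.9%, 71.1% and 29.3% at E11.5 and 62.5%, 41.8% and 10.1% at E12.5. *Sfrp5* was found in 11.8% (9.12 to 15.0) of positive and 23.2% (20.6 to 25.9) of negative glia at E12.5 after thinning, beside 0.658% of neurons, and in 28.5%, 40.2% and 1.19% before it. At E11.5, 0 of 222 thinned neurons held a *Sfrp5* UMI, which allows a share of up to 1.35% (3 cells of 222) of cells with a UMI at that depth, and does not bound the share that express the gene. Thinning left out 16 positive glia, 63 negative glia and 63 neurons at E12.5 and none at E11.5.

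Across the glial clusters *Lef1*, *Tcf7* and *Sfrp1* peaked in clusters with the same leading genes at both stages, while *Sfrp5* peaked in clusters with other leading genes at E12.5 than at E11.5 (the bar plot of levels across glial clusters). The cluster with the highest share of *Prss56* cells was led at both stages by *Cbln1* and *Cntn3*: it held 93 cells at E11.5 with 50.5% *Prss56*-positive, and 159 cells at E12.5 with 61.0%. There *Lef1* was at 301 CPM (272 to 332) and 292 (260 to 327), *Tcf7* at 36.4 (26.9 to 48.3) and 34.2 (23.8 to 47.6), and *Sfrp1* at only 13.7 and 14.7. These were the highest *Lef1* and *Tcf7* levels of the glial clusters at each stage. The cluster with *Dlx1* among its leading genes, which held 141 cells in the earlier library and 394 in the later, had the highest *Sfrp1* level, 141 CPM (124 to 159) and 160 (142 to 179), with *Lef1* at 163 and 185 CPM. It had 27.7% and 47.0% *Prss56*-positive cells, so the share of *Prss56* cells did not order *Sfrp1*.

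The lowest *Lef1* levels of the glial clusters were in clusters with few *Prss56* cells. At E11.5, the cluster led by *Cck* and *Dll1*, with 1.89% of its 53 cells *Prss56*-positive, had *Lef1* at 87.0 CPM (66.6 to 112) and 1 *Sfrp5* UMI. At E12.5, both clusters led by *Col22a1* (343 and 198 cells, 9.62% and 10.6% *Prss56*-positive) had *Lef1* at 72.9 (61.5 to 85.8) and 79.7 (66.8 to 94.2) CPM. In them *Sfrp5* reached 220 (200 to 242) and 219 (197 to 242) CPM and was itself among the 10 leading genes of both, beside *Rgcc*. At E11.5 *Sfrp5* was highest in the *Dlx1* cluster, at 61.2 CPM (50.4 to 73.7), which at E12.5 had 51.6. In the *Col22a1*-led clusters of E12.5 *Wnt5a* stood at 5.57 and 6.44 CPM, against 24.0 to 26.4 CPM in the 3 clusters with the most *Prss56* cells at that stage. *Dkk2* was highest in the *Mal*- and *Gfra3*-led cluster of 297 cells at E12.5, at 138 CPM (121 to 157), and in the *Dlx1*- and *Gfra3*-led cluster at E11.5, at 57.4 (46.9 to 69.5); it was among the leading genes of the former. In the *Col22a1*-led clusters *Dkk2* was at 11.6 and 4.10 CPM. Since a cluster is defined by the genes of its own cells, these levels are a description.

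**Figure D2:**
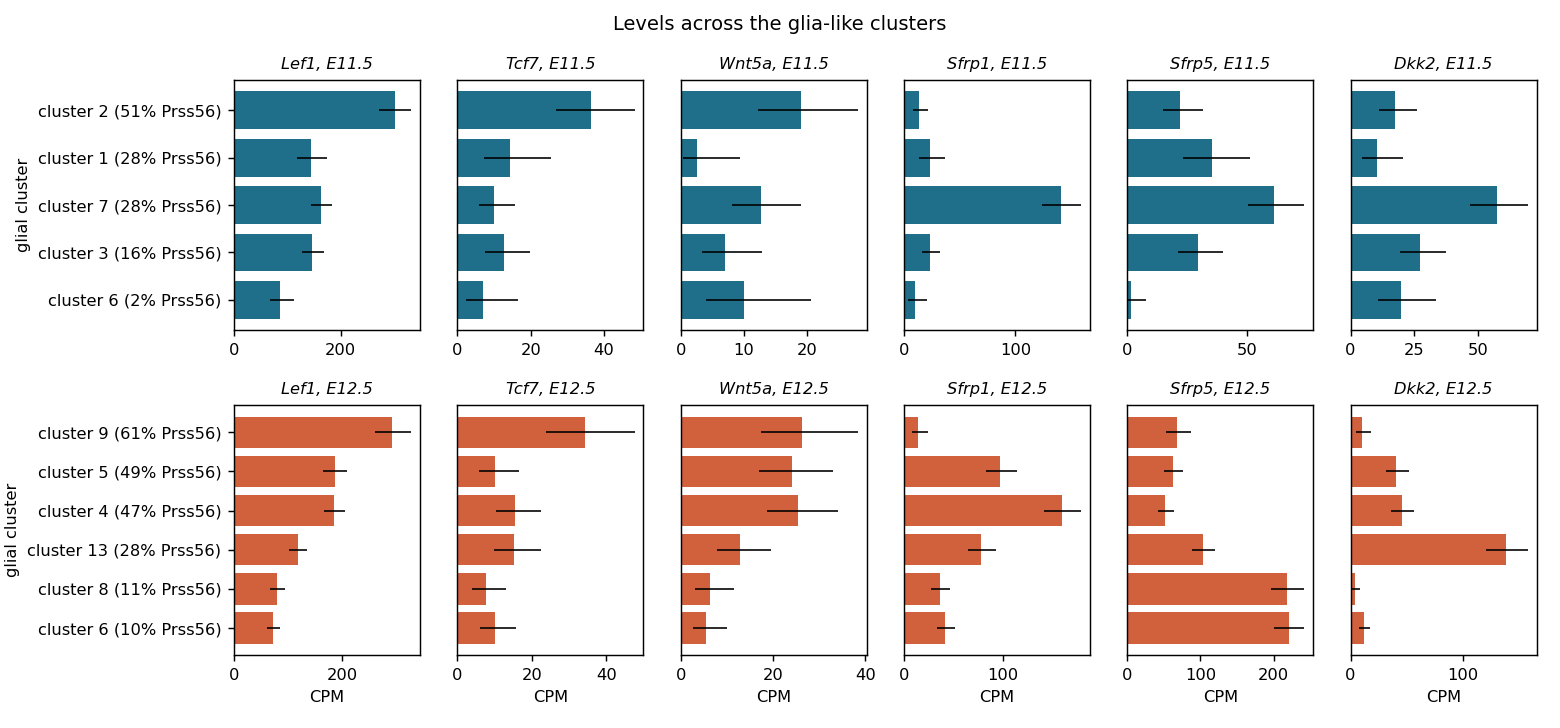
Level (CPM, linear axes from 0) of *Lef1*, *Tcf7*, *Wnt5a*, *Sfrp1*, *Sfrp5* and *Dkk2* in each glial cluster at E11.5 (top) and E12.5 (bottom), with clusters ordered by the share of *Prss56*-positive cells and 95% Poisson intervals as bars. *Lef1* and *Tcf7* are highest in the top cluster of each row, and *Sfrp5* is highest at E12.5 in the bottom 2 clusters, at 219 and 220 CPM.

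The second comparison set all glia against neurons of the same library. Most measurable members were higher in glia in both libraries: 16 of 26 were at least 2-fold higher in glia at E11.5, beside 19.0% of all genes, and 18 of 32 at E12.5, beside 23.5%. *Wnt9a* alone was at least 2-fold higher in neurons among the measurable members, at both stages, where 11.4% and 13.3% of all genes were. The median log2 ratio over measurable members was 1.30 and 1.58, beside 0.14 and 0.18 over all genes. The median log2 ratio over genes with at least 100 UMIs was 0.12 and 0.13. Scaling to these genes would lower every log2 ratio of this comparison by those amounts. Genes that passed the minimum of 20 UMIs through glia alone, or through neurons alone as *Wnt9a* did at E11.5, were bound to differ. Glia held 6028831 and neurons 2658887 UMIs at E11.5, and 9719453 and 9639277 at E12.5.

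The secreted inhibitor genes *Dkk2*, *Sfrp1*, *Sfrp2* and *Sfrp5* were more than 10-fold higher in glia than in neurons at both stages. *Dkk2* was at 31.2 CPM in glia against 1.5 in neurons at E11.5 (188 and 4 UMIs) and at 42.4 against 0.311 at E12.5 (412 and 3 UMIs), with ratios of 20.7 (7.96 to 76.9) and 136 (46.3 to 663). *Sfrp1* was at 54.9 against 3.01 CPM and 75.1 against 3.94 CPM, with ratios of 18.2 (9.15 to 42.6) and 19.1 (13.7 to 27.1). *Sfrp5* had 210 UMIs in glia, 34.8 CPM, and none in neurons at E11.5, which makes it at least 30.9-fold higher in glia when neurons are set to 3 UMIs. At E12.5 *Sfrp5* was at 127 against 1.76 CPM, a ratio of 72.2 (44.9 to 124). *Sfrp2* had ratios of 22.5 (3.86 to 906), from 51 and 1 UMIs, and 11.7 (4.74 to 37.4).

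The factor genes were higher in glia at both stages. *Lef1* was at 178 against 36.1 CPM and 144 against 19.0 CPM, with ratios of 4.94 (4.01 to 6.15) and 7.57 (6.49 to 8.88). *Tcf7l2* was at 125 against 24.8 CPM and 177 against 20.4 CPM, with ratios of 5.03 (3.90 to 6.57) and 8.68 (7.49 to 10.1). *Tcf7* had ratios of 3.15 (1.79 to 5.97) and 12.4 (6.69 to 25.3), and *Tcf7l1* of 2.12 (1.62 to 2.81) and 3.55 (3.08 to 4.10). *Axin2* was at 26.9 against 16.5 CPM at E11.5, a ratio of 1.62 (1.16 to 2.32), and at 24.5 against 6.64 CPM at E12.5, a ratio of 3.69 (2.79 to 4.94).

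The neurons were not uniform in *Tcf7l2*. In the neuronal clusters whose leading genes included *Steap1* (with *Vxn*, *Insm1* or both), the *Tcf7l2* level was 62.8 (44.2 to 86.6) and 48.5 (31.1 to 72.2) CPM at E11.5 and 101 (82.0 to 123) and 44.4 (34.9 to 55.8) CPM at E12.5. In the other neuronal clusters *Tcf7l2* was at 2.23 and 4.43 CPM at E11.5 and between 0 and 14.3 CPM at E12.5. The clusters with the higher level had 7 of 19 neuronal markers against 9 to 19 in the others.

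The receptor genes were mixed. Of 7 *Fzd* and 5 other receptor genes measurable at E11.5, *Fzd6*, *Fzd7*, *Fzd9*, *Lrp5* and *Ror1* were at least 2-fold higher in glia, beside 19.0% of all genes. Of 9 and 5 at E12.5, *Fzd4*, *Fzd6*, *Fzd7*, *Fzd8*, *Fzd9* and *Lrp6* were, beside 23.5% of all genes. *Fzd3*, *Ryk* and *Fzd2* stayed under 2-fold at both stages. *Fzd3* was at 74.3 CPM in glia against 62.8 in neurons at E11.5 and 97.7 against 55.2 at E12.5, with ratios of 1.18 (0.988 to 1.42) and 1.77 (1.59 to 1.97). *Ryk* had ratios of 1.06 (0.812 to 1.40) and 1.29 (1.07 to 1.56), and *Fzd2* of 1.80 (1.34 to 2.44) and 1.66 (1.44 to 1.91). *Fzd7* was more glial, at 2.92 (1.38 to 7.12) and 9.70 (4.88 to 21.9). *Lrp5* and *Lrp6* were at 2.0 and 1.93 at E11.5 and at 1.61 and 2.29 at E12.5, and *Ror1* at 2.57 and 1.68. *Ror2*, the relative of *Ror1*, was lower in glia than in neurons, at 3.98 against 7.15 CPM and 2.68 against 5.29 CPM, with ratios of 0.557 (0.292 to 1.08) and 0.506 (0.303 to 0.826).

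The ligand genes divided between the classes. *Wnt9a* had 2 UMIs in glia and 20 in neurons at E11.5, and 2 and 52 at E12.5, so that it was 22.7-fold (5.51 to 200) and 26.2-fold (6.90 to 222) higher in neurons. At E11.5 *Wnt9a* passed the minimum of 20 UMIs through neurons alone, so its side there was set by that minimum. Of its 20 neuronal UMIs at E11.5, 14 lay in 1 cluster of 80 cells. *Wnt10a*, named after its values were seen since it was under the minimum with 14 UMIs at E11.5, had 13 of them in neurons, 4.89 CPM (2.60 to 8.36), and 0 in glia. In the larger E12.5 library it had only 5 UMIs over all kept cells. *Wnt5a* was at 11.1 against 10.5 CPM at E11.5, a ratio of 1.06 (0.670 to 1.70), and at 15.8 against 5.29 CPM at E12.5, a ratio of 2.99 (2.17 to 4.20). *Wnt5b* had ratios of 3.68 (1.58 to 10.5) and 1.87 (1.21 to 2.92), and *Wnt4* of 3.82 (1.17 to 19.7) and 1.52 (1.03 to 2.27).

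**Figure D3:**
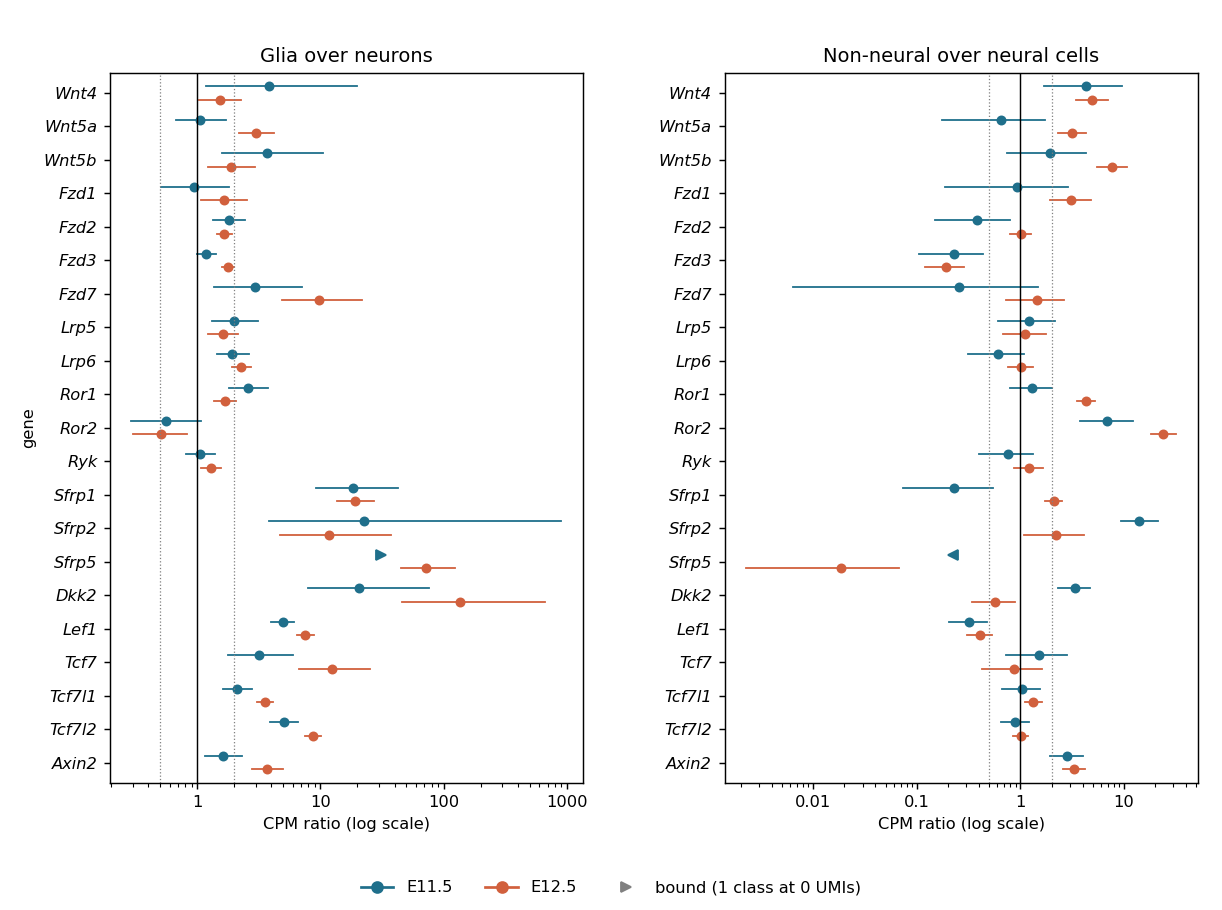
Ratio of the level (CPM) in glia to that in neurons (left) and in non-neural to neural cells (right) on log axes, for the 21 genes with at least 100 UMIs at either stage, at E11.5 (blue) and E12.5 (orange), with 95% counting intervals; triangles are bounds where 1 class had 0 UMIs and dotted lines mark a 2-fold difference. *Dkk2*, *Sfrp1*, *Sfrp2* and *Sfrp5* lie at a ratio of 11.7 or more at both stages in the left panel, and *Dkk2* and *Sfrp1* lie on opposite sides of equality at the 2 stages in the right panel.

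The third comparison set non-neural cells against all neural cells, glia and neurons together. A neural level is therefore a mix of glia and neurons, which differ in many of these genes. At E11.5, 7 of 26 measurable members were at least 2-fold higher in non-neural cells, beside 14.1% of all genes, and 6 were at least 2-fold higher in neural cells (*Fzd2*, *Fzd3*, *Fzd7*, *Lef1*, *Sfrp1* and *Sfrp5*), beside 14.4%. At E12.5 these counts were 16 of 32, beside 16.4%, and 4 of 32, beside 12.5%. The median log2 ratio over measurable members was -0.093 and 0.96, beside -0.076 and 0.017 over all genes. Non-neural cells were 61 pericyte-like cells with 556164 UMIs at E11.5 and mostly mesenchymal-like cells at E12.5, so the stages compare different classes of cells. The median log2 ratio over genes with at least 100 UMIs was -0.13 at E11.5, so scaling to these genes would raise the E11.5 log2 ratios by that amount.

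The ligand genes *Wnt4*, *Wnt5a*, *Wnt5b*, *Wnt6*, *Wnt9a* and *Wnt11* were at least 2-fold higher in non-neural than in neural cells at E12.5. So were receptor and inhibitor genes, *Rspo3* and *Axin2*. *Wnt6* had 83 UMIs in non-neural cells, every one of them in mesenchymal-like cells, against 13 in the much larger neural class, a level of 79.7 CPM in mesenchymal-like against 0.672 in neural cells and a ratio of 119 (65.7 to 232). *Wnt11*, a non-canonical ligand, had 18 against 2 UMIs, of which 13 lay in mesenchymal-like and 5 in pericyte-like cells. *Wnt5a* was at 51.9 CPM in mesenchymal-like and 3.20 CPM (1 UMI) in pericyte-like cells, against 10.6 in neural cells. *Wnt5b* was at 45.1 CPM in mesenchymal-like and 54.3 in pericyte-like cells, against 5.06 in neural cells, with ratios of 8.92 (6.16 to 12.7) and 10.7 (6.01 to 18.1). *Wnt4* was at 29.1 against 5.89 CPM over all non-neural cells at E12.5, a ratio of 4.94 (3.45 to 6.97), and at 14.4 against 3.34 CPM at E11.5, a ratio of 4.31 (1.70 to 9.66). *Wnt9a*, which was higher in neurons than in glia, was at 19.2 CPM (20 UMIs) in mesenchymal-like cells. It was among the genes at least 2-fold higher in non-neural than in neural cells at E12.5.

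Both Ror receptor genes were higher in mesenchymal-like than in neural cells at E12.5. *Ror2* was at 34.2 CPM in pericyte-like cells against 4.95 in neural cells at E11.5, a ratio of 6.90 (3.80 to 12.1). At E12.5 *Ror2* was at 146 CPM in mesenchymal-like and 16.0 in pericyte-like cells against 3.98 in neural cells, with ratios of 36.7 (27.7 to 48.9) and 4.02 (1.27 to 9.79). *Ror1* was at 121 CPM in mesenchymal-like cells against 19.5 in neural cells at E12.5, a ratio of 6.21 (5.04 to 7.62). At E11.5 *Ror1* was at 37.8 CPM (23.4 to 57.7) in pericyte-like and 29.1 (25.6 to 32.9) in neural cells, with overlapping intervals. *Fzd3* was the neural Frizzled in both libraries, at 16.2 against 70.8 CPM and 14.5 against 76.6 CPM, with ratios of 0.229 (0.104 to 0.437) and 0.190 (0.121 to 0.284). *Fzd6* was higher in non-neural cells, with ratios of 13.2 (6.33 to 27.0) and 5.50 (3.20 to 9.21), and *Lrp6* had ratios of 0.613 (0.313 to 1.09) and 1.01 (0.757 to 1.33). *Fzd2* was lower in non-neural cells at E11.5, at 12.6 against 33.3 CPM (0.378, 0.151 to 0.790), and had a ratio of 1.01 (0.787 to 1.28) at E12.5.

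Each inhibitor gene had its own place. *Sfrp2* was at 84.5 CPM in pericyte-like cells against 5.99 in neural cells at E11.5, a ratio of 14.1 (9.31 to 21.4), and at 16.0 CPM in pericyte-like cells at E12.5. *Sfrp5* was a neural gene, with 0 non-neural against 210 neural UMIs at E11.5, at least 4.48-fold lower with non-neural cells set to 3 UMIs, and 2 against 1255 at E12.5, a ratio of 0.0187 (0.00226 to 0.0676). *Sfrp1* was lower in non-neural than in neural cells at E11.5, at 8.99 against 39.0 CPM (0.230, 0.0743 to 0.543), and higher at E12.5, at 83.6 against 39.7 CPM (2.11, 1.74 to 2.53). The neural level at E12.5 includes neurons, which were low in *Sfrp1*. Of the glia at that stage, *Prss56*-negative cells were at 82.8 CPM and positive cells at 59.0. Against neural cells, *Dkk2* took the opposite turn to *Sfrp1*, at 73.7 against 22.1 CPM at E11.5 (3.34, 2.32 to 4.69). At E12.5 it was at 12.1 against 21.4 CPM (0.565, 0.342 to 0.884). The 41 non-neural *Dkk2* UMIs at E11.5 lay in 10 of 61 cells. Pericyte-like cells alone at E12.5 had *Sfrp1* at 12.8 CPM (3.48 to 32.7), with a ratio of 0.322 (0.0876 to 0.828), and *Dkk2* at 32.0 CPM, with a ratio of 1.49 (0.709 to 2.77). Both genes thus kept their E11.5 side of equality in that class, for *Dkk2* within counting error. The pericyte-like clusters were not alike: *Acta2*, *Tagln*, *Actg2* and *Cnn1* led that of E12.5 and *Vtn* and *Gja4* that of E11.5. *Igfbp7*, *Kcnj8*, *Cldn5* and *Ndufa4l2* were among the leading genes of both.

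The R-spondin genes had few UMIs: *Rspo3* was the only measurable one, at E12.5, with 37 UMIs in non-neural cells, every one in mesenchymal-like cells, and 18 in neural cells, a ratio of 38.2 (21.2 to 71.3) for mesenchymal-like against neural cells. Among the factor genes, *Lef1* was lower in non-neural than in neural cells, at 43.2 against 135 CPM and 33.3 against 81.6 CPM, with ratios of 0.320 (0.204 to 0.479) and 0.408 (0.306 to 0.534). *Tcf7l2* did not differ beyond counting error from the pooled neural class, at 0.898 (0.654 to 1.20) and 1.01 (0.854 to 1.18). Its non-neural level of 84.5 CPM at E11.5 lay between glia at 125 and neurons at 24.8. *Lef1* at E11.5 also lay between glia, at 178 CPM, and neurons, at 36.1, with an interval that overlapped that of neurons. Both genes lay between glia and neurons at E12.5 as well. *Axin2* was higher in non-neural cells at both stages, at 66.5 against 23.7 CPM and 51.5 against 15.6 CPM, with ratios of 2.81 (1.92 to 4.0) and 3.30 (2.56 to 4.21). Against the pooled neural class, *Lef1* and *Axin2* thus lay on opposite sides of equality in the same cells. The non-neural *Axin2* level was above those of both glia and neurons at each stage. Markers of glia summed to 428 and 379 CPM in non-neural cells against 3725 and 7095 in glia, and their part in these levels was not tested.

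**Figure D4:**
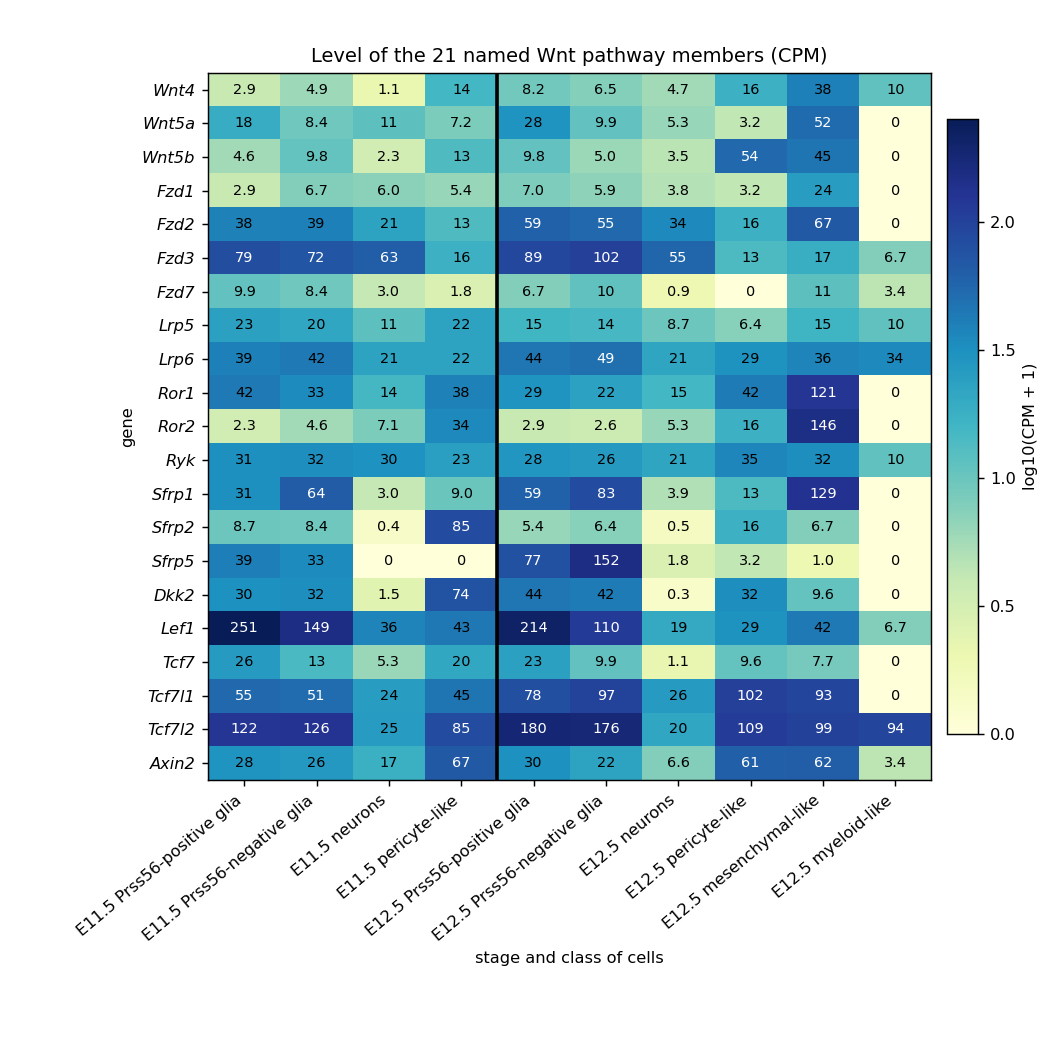
Level (CPM, printed in each cell and coloured on a log10 scale) of the 21 genes with at least 100 UMIs at either stage, in the classes of cells at E11.5 (left of the black line) and E12.5 (right). The *Lef1* row is darkest in *Prss56*-positive glia at both stages, and the *Ror2* row is darkest in mesenchymal-like cells, at 146 CPM.

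The stages were set side by side within glia and within neurons, where stage, embryos and library cannot be told apart. The glia of E11.5 include a cluster led by *Cck* and *Plcb1*, while the E12.5 cluster with these leading genes was unnamed and is left out. In glia, 1 of 26 members measurable at both stages was at least 2-fold higher at E12.5 (*Sfrp5*), beside 6.98% of 12263 genes, and 1 was at least 2-fold higher at E11.5 (*Fzd10*, from 11 and 14 UMIs), beside 2.33%. *Sfrp5* was at 34.8 CPM at E11.5 and 127 at E12.5, a ratio of 3.66 (3.16 to 4.25). In *Prss56*-negative glia the *Sfrp5* ratio was 4.59 (3.85 to 5.51) and in positive glia 1.96 (1.49 to 2.60). *Tcf7l1* was at 51.8 and 90.8 CPM, a ratio of 1.76 (1.54 to 2.0), while *Lef1* was at 178 and 144 CPM, a ratio of 0.806 (0.744 to 0.874). *Ror1* and *Lrp5* were lower at E12.5, at 0.681 (0.564 to 0.822) and 0.664 (0.518 to 0.853). *Wnt5b* differed by class, with a ratio of 2.12 (0.953 to 5.34) in positive and 0.515 (0.316 to 0.832) in negative glia.

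In neurons, 1 member was at least 2-fold higher at E12.5 (*Wnt4*, 45 against 3 UMIs, a ratio of 4.14 with an interval of 1.33 to 20.8), beside 5.99% of all genes, and 6 of 26 were at least 2-fold higher at E11.5 (*Axin2*, *Dkk2*, *Dkk3*, *Fzd7*, *Fzd10* and *Tcf7*), beside 3.83%. *Axin2* was at 16.5 CPM at E11.5 and 6.64 at E12.5, a ratio of 0.401 (0.269 to 0.603). *Tcf7* was at 5.27 and 1.14 CPM, a ratio of 0.217 (0.0890 to 0.514), and *Lef1* at 36.1 and 19.0 CPM, a ratio of 0.526 (0.409 to 0.680). *Wnt5a* followed, at 10.5 and 5.29 CPM, a ratio of 0.502 (0.311 to 0.827). *Dkk2*, *Dkk3*, *Fzd10* and *Fzd7* rested on 3 to 9 UMIs at each stage. The mix of neuronal clusters also differed between the stages. Those with *Steap1* among their leading genes held 42 and 50 of 222 neurons at E11.5 and 106 and 322 of 1431 at E12.5. The part of this mix in the differences was not tested. The median log2 ratio over the 26 members was -0.46 in neurons, beside 0.052 over all genes, and 0.098 in glia, beside 0.11.

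A list of 62 other Wnt pathway genes, which covers ligand processing, further inhibitors, the destruction complex, feedback targets and planar polarity genes, was counted in the same way. Between *Prss56*-positive and negative glia, 2 of 50 measurable genes were at least 2-fold higher in positive cells (2.90% of all genes) and 4 lower (4.48%) at E11.5, and 5 of 52 higher (4.93%) and 2 lower (3.53%) at E12.5. *Apcdd1*, which encodes a membrane-bound inhibitor, was at 71.3 against 16.7 CPM and 128 against 38.5 CPM, with ratios of 4.26 (3.16 to 5.79) and 3.33 (2.84 to 3.91), and was past 2-fold in both libraries. *Wif1*, a secreted ligand-binding inhibitor, was at 48.1 against 26.3 CPM (1.83, 1.36 to 2.46) and 94.5 against 39.1 CPM (2.42, 2.04 to 2.87). *Notum*, an enzyme that removes the lipid of Wnt proteins, differed beyond counting error at E12.5, at 14.9 against 2.28 CPM and a ratio of 6.53 (3.59 to 12.6), beside 1.25 (0.680 to 2.22) at E11.5.

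The feedback gene *Nkd1*, an inhibitor that binds Dishevelled, had ratios of 1.37 (1.17 to 1.60) and 1.94 (1.59 to 2.36) between positive and negative glia. *Sp5*, a transcription factor gene induced by canonical signalling, had ratios of 1.26 (0.954 to 1.64) and 2.15 (1.61 to 2.86). *Znrf3*, a ligase that removes Frizzled receptors, stood at 0.927 and 1.22 (1.06 to 1.40) and *Ctnnb1*, which encodes β-catenin, at 1.03 and 1.02. *Sostdc1*, another secreted inhibitor, was lower in positive glia at both stages, at 0.333 (0.0852 to 0.944) and 0.417 (0.294 to 0.578). Of the polarity genes, *Ptk7* had ratios of 1.67 (1.38 to 2.02) and 1.87 (1.67 to 2.11), and *Prickle2* of 1.69 (1.40 to 2.05) and 1.85 (1.64 to 2.08). The polarity genes did not all move this way: *Celsr2* was at least 2-fold lower in positive glia at E11.5. *Celsr3* was at least 2-fold higher in them at E12.5.

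Between glia and neurons, 18 of 50 genes of the wider list were at least 2-fold higher in glia (19.0% of all genes) and 6 in neurons (11.4% of all genes) at E11.5, and 18 (23.5%) and 8 (13.3%) of 52 at E12.5. *Wif1* (10.8, 5.38 to 25.4, and 12.8, 9.38 to 17.9) and *Frzb*, a further secreted Frizzled-related protein gene (12.5, 8.20 to 20.1, and 8.62, 6.73 to 11.2), lay on the glial side with the *Sfrp* genes. *Wls*, the carrier that all lipid-modified Wnt proteins need for secretion, was higher in glia than in neurons, at 3.26 (2.48 to 4.35) and 6.59 (5.42 to 8.08), and higher in non-neural than in neural cells, at 3.85 (3.13 to 4.70) and 6.66 (5.96 to 7.44). *Porcn*, the enzyme that attaches the lipid, was lower in glia than in neurons, at 0.406 (0.249 to 0.660) and 0.339 (0.251 to 0.453). *Apc2*, a neuronal relative of the destruction complex gene *Apc*, was lower still, at 0.0103 (0.00122 to 0.0382) and 0.0741 (0.0416 to 0.123). Against neural cells, 9 and 12 of 50 genes were at least 2-fold higher and lower in non-neural cells at E11.5 (14.1% and 14.4% of all genes), and 13 and 11 of 52 at E12.5 (16.4% and 12.5%). Between stages these counts were 4 higher and 3 lower at E12.5 of 50 in glia (6.98% and 2.33% of all genes) and 2 higher and 4 lower in neurons (5.99% and 3.83%).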

How the data were processed

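Tomato-positive cells were captured with the 10x Genomics 3′ kit (V2), and the authors deposited raw UMI counts per gene and barcode, made with Cell Ranger (7.0 in the submitters' notes, 7.0.1 in the matrix header) on mm39; whether intronic reads were counted is not given in the sources used here. Cells with over 10% mitochondrial UMIs, under 2000 (E11.5) or 1000 (E12.5) UMIs, or a Scrublet doublet score of 0.2 or more (7 and 67 cells) were left out, with the study's thresholds. Each library was clustered with scanpy 1.11.5 (3000 variable genes, 30 components, 15 neighbours, Leiden resolution 1). Clusters were named after the class whose listed markers they held in the largest proportion (3 at the least) and stayed unnamed where the 10 leading genes held more markers of another class; motor neuron markers did not count against a neuronal name. UMIs were summed per class and divided by the total UMIs of the class (CPM). Ratios carry exact conditional intervals, CPM exact Poisson intervals and shares exact Clopper-Pearson intervals. A class at 0 UMIs was set to 3 UMIs for a bound. Of the listed genes, those with at least 100 UMIs at either stage were named in full. The ratio code was checked on simulated counts. The members and lists were chosen with earlier results of these data known. Promoters came from RefSeq on GRCm38.p6, another build than that of the counts. Genes that overlap on the same strand may share reads. Alternatives covered filters, clustering, naming, scaling and the definition of *Prss56*-positive cells.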

Additional observations from a re-analysis of the deposited data

Results flagged for a closer look

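*Dkk2* and *Sfrp1* stood out because their ratio between non-neural and neural cells lay on opposite sides of equality at the 2 stages, with intervals that left out equality each time; the difference between stages was not tested. For *Dkk2* the E11.5 ratio was 3.34 and the E12.5 ratio 0.565. Its 41 non-neural UMIs at E11.5 lay in 10 of 61 cells, and the counting interval takes no account of such uneven counts. For *Sfrp1* the ratios were 0.230 and 2.11. Neural cells pool glia and neurons, with 461 and 222 cells at E11.5 and 1588 and 1431 at E12.5. At E12.5 *Sfrp1* was at 82.8 CPM in *Prss56*-negative glia alone, close to its non-neural level. The E11.5 non-neural cells were pericyte-like and those of E12.5 mostly mesenchymal-like; in the pericyte-like cells of E12.5, ratios were 1.49 (0.709 to 2.77) for *Dkk2* and 0.322 (0.0876 to 0.828) for *Sfrp1*.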

How the results depend on the processing

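Of 1659 ratios recomputed under other settings, 3 of them chosen after seeing the data, 1622 stayed within the counting interval of the reported ratio, 37 moved beyond it and 0 of those past 2-fold changed side of equality. The count of members past 2-fold between *Prss56*-positive and negative glia was the least stable: at E11.5 it was 6, and it was 2 with no doublet filter, 1 at Leiden resolution 0.5, 3 with the mean of each cell's own CPM and 11 at 1.5-fold. At E12.5 it was 5, and it was 8 with the mean of each cell's own CPM, 10 at 1.5-fold and 3 with a minimum of 50 UMIs. Over the alternatives to the *Prss56* split, the *Lef1* ratio lay between 1.30 and 1.81 at E11.5 and 1.38 and 2.13 at E12.5, *Wnt5a* between 1.78 and 2.67 (E11.5) and 1.93 and 3.36 (E12.5), *Tcf7* between 1.30 and 2.20 and 1.92 and 3.04, and *Sfrp1* between 0.383 and 0.542 and 0.534 and 0.820. *Sfrp5* lay between 0.807 and 1.39 at E11.5 and between 0.439 and 0.846 at E12.5. With 1 library per stage, no replicate could be left out, and the spread between embryos was not measured. No paired analysis was possible because each stage was 1 library and the result comes from no test. Genes under 20 UMIs at a stage were left out of its counts.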

Other observations

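The globin-led cells that took no class name also held these transcripts. There were 89 of them at E11.5, with a median of 2814 UMIs, and 218 at E12.5, with a median of 6432. *Lef1* was at 171 CPM (127 to 225) in them at E11.5 and at 53.2 (42.0 to 66.5) at E12.5, *Tcf7l2* at 97.3 and 168 CPM, *Fzd3* at 93.9 and 81.5 CPM and *Sfrp1* at 53.7 and 18.0 CPM. Glial markers summed to 4230 and 4602 CPM in them, *Sox10* was found in 61.8% and 62.8% of them, and erythroid markers summed to 325 and 3751 CPM. At E12.5 the globin gene *Hbb-y* had 2876 UMIs there, in 5.96% of the cells.

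*Lef1* and *Sfrp5* were also counted together in single glia. Of 1226 glia thinned to 4000 UMIs at E12.5, 108 held a UMI of both genes, beside 141.89 from the product of the 2 shares; with no thinning these were 261 and 280.63 of 1588 cells. At E11.5 they were 16 and 20.68 of 425 thinned cells and 77 and 82.05 of 461 cells with no thinning. Only in thinned E12.5 glia did the interval leave out the product, at 8.81% (7.28 to 10.5) beside 11.6%. With no thinning the E12.5 share was 16.4% (14.6 to 18.4) beside 17.7%. Other pairs, such as *Lef1* with *Axin2*, *Tcf7* or *Wnt5a*, were also counted and are not described.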
